A study of Mus musculus with 6 samples.

Results

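RNA of the nuclear-encoded subunits of the mitochondrial respiratory chain was measured in the mouse melanoma line B16.F10 (wild-type genotype, per the labels) after 24 h in culture with 3.5 µM simvastatin or without treatment. Members were matched by symbol alone, by a rule chosen with earlier results of these data known. It takes genes whose symbol begins with Nduf and a subunit letter, Sdha to Sdhd, the Uqcr genes, Cyc1, the Cox5 to Cox8 families and the Atp5 genes. The rule found 80 of the 8513 genes in the authors' deposited table, with 169 of its 15905 transcripts. By name, 38 belong to complex I, 4 are complex I assembly factors, 4 belong to complex II, 9 to complex III, 10 to complex IV and 15 to complex V. All 80 had a mean gene total of at least 1. There were 3 samples per group, described as biological replicates in the series text, and all 6 carry the same batch label. The p-values can reflect at most the spread between those samples, and the test behind them is not named in the sources used here. The table gives 1 value per group and transcript and none per sample, so no SD could be computed, and the depth of the samples is unknown. The unit of the values is not stated to be per length, so levels are compared between groups and not between genes.

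The respiratory chain passes electrons from NADH (complex I) and succinate (complex II) through ubiquinone to complex III, and from there through cytochrome c to complex IV, which reduces oxygen. The proton gradient made on the way drives ATP synthase, complex V. Most subunits are encoded in the nucleus and imported, while a few core subunits are encoded in mitochondrial DNA, so each complex except complex II is built from both genomes. Simvastatin inhibits HMG-CoA reductase and so the mevalonate pathway, which besides cholesterol also supplies the isoprenoid tail of ubiquinone and the farnesyl group of haem a in complex IV.

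Library-wide values were as follows. The group values summed to 344210 with simvastatin and 394749 in control, and annotated coding transcripts to 206527 and 211935. The gap lay largely outside coding transcripts: annotated miRNA transcripts summed to 14335 and 27787, and lincRNA transcripts to 8275 and 15178. Dividing each value by the sum of its group moves the median log2 ratio of all genes by 0.20, and dividing by the coding sum moves it by 0.04. Levels of a complex are therefore given both as deposited and relative to the median of all genes, which no such scaling alters. The melanocyte markers Mlana, Pmel, Tyr, Tyrp1, Dct, Sox10, Mitf and Gpr143 were all measured and summed to 9408 with simvastatin and 6885 in control. Of 6 leukocyte markers 1 was measured, at 0.93 and 0.37, and the 7 fibroblast and 4 keratinocyte markers were not analysed here. In bulk RNA, fewer cells of a kind and less RNA per cell cannot be told apart.

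No member passed an adjusted p of 0.05. For each gene the transcript of highest mean value stood for the gene, and a member was counted where the adjusted p of that transcript in the authors' deposited table was under 0.05. On this measure 0 of 80 members were higher, beside 1.76% of all genes, and 0 were lower, beside 1.39%. Over every transcript the counts were again 0 higher (1.11% of all transcripts) and 0 lower (0.987%). At an unadjusted p under 0.05 in the authors' deposited table, 1 member was higher (Cox7a2, beside 13.6% of all genes) and 9 were lower (Atp5a1, Atp5b, Atp5j, Atp5o, Cox8a, Cyc1, Ndufa4l2, Ndufb10 and Sdhd, beside 14.9%). These 9 are 11.2% of the members, under the share of all genes. Over every transcript the unadjusted counts were 3 of 169 higher (1.78%, beside 9.42% of all transcripts) and 14 lower (8.28%, beside 10.2%). At an adjusted p under 0.1 in the authors' deposited table no member was higher (6.28% of all genes) and 3 were lower, Atp5j, Atp5o and Cox8a (5.67%).

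The members had a small difference that many of them shared. Transcript values were added up per gene, and the log2 ratio of these gene totals, simvastatin over control, had a median of -0.16 over the 80 members and 0.02 over all genes, a gap of 0.18, and dividing by the group sums turned the members' median to 0.04 while leaving that gap as it was. As deposited, 65 of 80 members had the lower total with simvastatin, beside 48.3% of all genes, and 15 the higher, beside 51.7%. After division by the group sums 37 of 80 were lower, beside 33.9% of all genes, and 68 of 80 lay below the median of all genes under any of these scalings. The middle 50% of members ran from -0.32 to -0.04, a width of 0.28, against 0.68 for all genes and 0.56 for the 5172 genes with a mean total of at least 10. Summed over members the values were 6717 with simvastatin and 7432 in control, a ratio of 0.904. As deposited, 3 members differed by 1.5-fold or more in their totals, Atp5e, Ndufaf6 and Ndufab1, all 3 with the lower value under simvastatin. A shift to the lower side was not particular to the members. Protein import and cristae genes had a median log2 ratio of -0.29, with 23 of 31 lower as deposited. That list also holds the channel genes Vdac1, Vdac2 and Vdac3 and the carrier genes Slc25a4 and Slc25a5. Representative coding transcripts of other genes had medians of -0.45 under 500 nt and -0.13 from 500 to under 1000 nt.

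**Figure D1:**
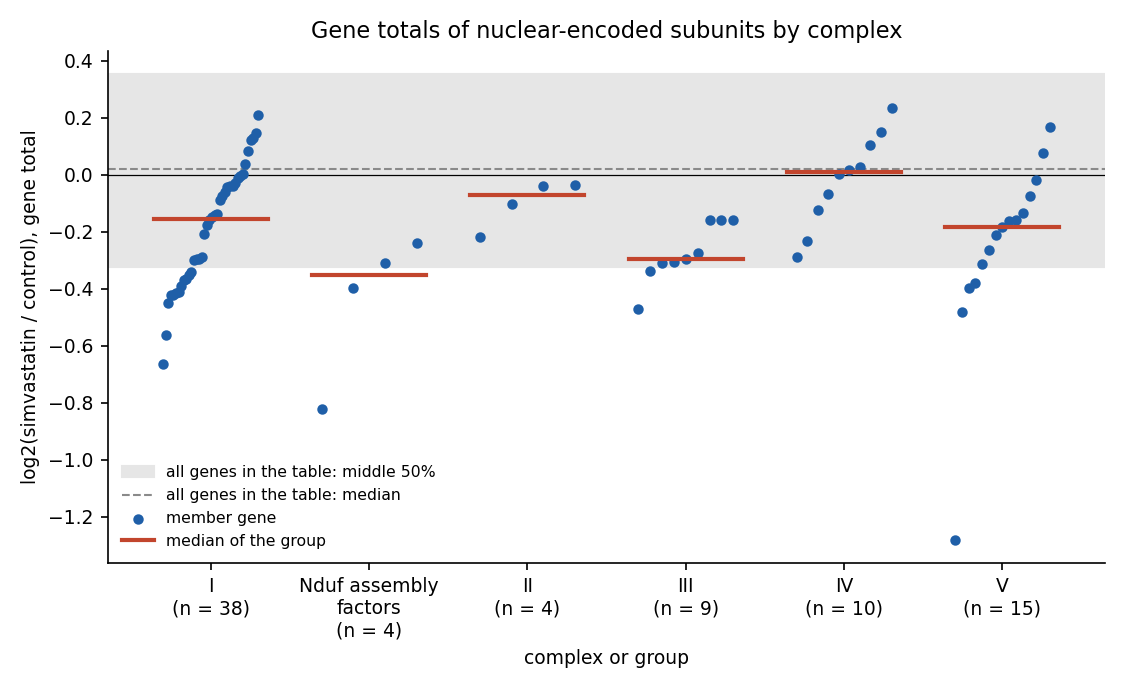
Log2 ratio of gene totals, simvastatin over control as deposited (vertical axis), for each member (blue points, ordered by value) in complexes I to V and the Nduf assembly factors, with group medians (red) and the median and middle 50% of all genes (dashed line and grey band). Complex III lies wholly below 0 and complex IV straddles it, with medians of -0.30 and 0.01, and dividing by the group sums would move every point up by 0.20, taking the medians of complexes I, II and V above 0.

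Transcript length moved with the ratios across the table. Here the ratio is that of the representative transcript by itself, where that is an annotated coding one, and not of the gene total. Among other coding genes its median log2 was -0.45 where the transcript was under 500 nt, -0.13 from 500 nt, -0.08 from 1000 nt, 0.07 from 2000 nt and 0.24 at 4000 nt and over. Members are short, with a median of 861 nt against 2720 nt for other coding genes, and none of the 71 members with a representative coding transcript reached 4000 nt. Their medians in the same classes were -0.11 (9 genes), -0.15 (33 genes), -0.15 (24 genes) and -0.25 (5 genes). In the class from 500 to under 1000 nt, which holds the most members, the medians of members and other genes thus lay close together, while the share of genes whose representative transcript was lower as deposited was 78.8% among members and 61.4% among the others. Within the 71 members length and log2 ratio were nearly unrelated (Pearson r = 0.05, Spearman rho = -0.03, across genes of 1 comparison, which are not independent). The part of transcript length in the median of the members' gene totals was not tested.

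**Figure D2:**
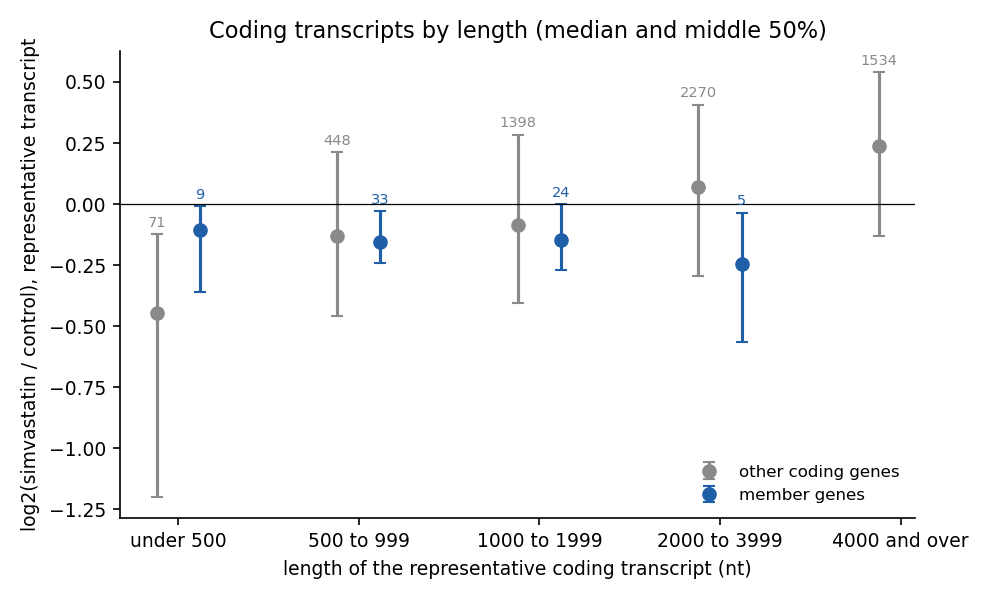
Median (points) and middle 50% (bars) of the log2 ratio of the representative coding transcript as deposited, for members (blue) and other coding genes (grey) by the length of that transcript in nt, with the number of genes above each bar. The medians of other genes run from -0.45 under 500 nt to 0.24 at 4000 nt and over, and those of members from -0.11 to -0.25, and division by the group sums adds 0.20 to every value.

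Promoter sequence was examined next, since members largely lay on 1 side of the median of all genes. RefSeq (GRCm38.p6) gave windows of 300 bases, 250 before the start and 50 after it, for 67 of the 80 members. The 4 shown are those of Cox8a and Atp5o, the members whose coding transcripts had the smallest p-values, and of Cox6b1 and Cox7a2. In Cox6b1 only a transcript annotated as a retained intron was higher (7.53 with simvastatin and 1.88 in control), while the gene total was lower (181 and 197). The total of Cox7a2 was barely higher (258 and 255). The 4 windows are therefore no contrast of lower and higher genes. All 4 lie on the minus strand and are printed 5′ to 3′, with matches to the searched motifs in capitals: Cox8a at chr19:7217567-7217866, Atp5o at chr16:91931581-91931880, Cox6b1 at chr7:30626065-30626364 and Cox7a2 at chr9:79759804-79760103.
Cox8a: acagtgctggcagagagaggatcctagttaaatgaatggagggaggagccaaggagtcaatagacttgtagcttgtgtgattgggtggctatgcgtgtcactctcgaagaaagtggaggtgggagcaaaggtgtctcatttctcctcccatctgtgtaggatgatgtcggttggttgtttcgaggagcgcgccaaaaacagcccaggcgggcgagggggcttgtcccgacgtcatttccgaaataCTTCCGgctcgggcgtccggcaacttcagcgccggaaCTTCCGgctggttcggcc
Atp5o: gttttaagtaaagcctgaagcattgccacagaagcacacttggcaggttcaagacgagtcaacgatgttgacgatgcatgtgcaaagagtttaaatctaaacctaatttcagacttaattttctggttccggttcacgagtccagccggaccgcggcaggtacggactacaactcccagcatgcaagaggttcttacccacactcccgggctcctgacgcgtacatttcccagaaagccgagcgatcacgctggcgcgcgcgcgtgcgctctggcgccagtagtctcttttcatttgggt
Cox6b1: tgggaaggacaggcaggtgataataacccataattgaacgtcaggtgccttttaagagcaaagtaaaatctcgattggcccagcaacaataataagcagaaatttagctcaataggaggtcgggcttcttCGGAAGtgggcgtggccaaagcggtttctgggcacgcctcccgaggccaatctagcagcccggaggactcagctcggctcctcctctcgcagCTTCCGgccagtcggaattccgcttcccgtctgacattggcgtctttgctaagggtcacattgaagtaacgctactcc
Cox7a2: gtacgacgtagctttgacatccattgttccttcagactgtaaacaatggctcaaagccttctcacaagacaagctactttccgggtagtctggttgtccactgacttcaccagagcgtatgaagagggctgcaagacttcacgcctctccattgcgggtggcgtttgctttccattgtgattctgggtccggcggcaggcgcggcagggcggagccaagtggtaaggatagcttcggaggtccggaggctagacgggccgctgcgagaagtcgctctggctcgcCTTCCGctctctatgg
The capitals are CGGAAG, the core bound by ETS factors such as GABP, or its reverse complement CTTCCG. In Cox8a it begins at bases 246 and 283 of the window, in Cox6b1 at 131 and 223, and in Cox7a2 at 285, where the annotated start follows base 250. The Atp5o window holds no match to any motif searched.

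The motifs were searched as 4 letter strings on both strands. CGGAAG stood in the windows of 30 of 67 members (44.8%), beside 39.9% of the 6092 genes of the table that have a window and 18.8% of all 27025 genes with one. TGCGCA, the core of sites for NRF1, a regulator of mitochondrial genes, stood in 19 members (28.4%), beside 18.3% of the table's genes and 8.79% of all. AAGATGGC, a form of the YY1 site, stood in 10 members (14.9%), beside 6.27% and 3.19%. TCACNCCAC, a sterol regulatory element, stood in 0 of the 67, beside 1.46% and 1.44%. CGGAAG and AAGATGGC can share the letters AAG, and they overlapped in 0 member windows. Members with CGGAAG had a median log2 ratio of -0.21 and those without it -0.14, and the medians with and without TGCGCA were -0.22 and -0.16, all as deposited and each 0.20 higher after division by the group sums. A match is a description of these letters, not a site.

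Complex I takes electrons from NADH, and its 38 members summed to 1794 with simvastatin and 1969 in control (ratio 0.911). Their median log2 ratio was -0.15 as deposited and 0.04 after division by the group sums, which is 0.17 below the median of all genes on either scale, and 31 of 38 had the lower total as deposited but 17 after that division. The 7 nuclear core subunits, which carry the flavin and iron-sulfur clusters, had a median of -0.29 and the 29 accessory subunits -0.14 as deposited, -0.09 and 0.06 after division by the group sums, and -0.31 and -0.16 against the median of all genes. By summed value the order was the other way, with ratios of 0.953 for the core and 0.902 for the accessory subunits as deposited. Of the core, Ndufv1, which binds FMN and NADH, had totals of 23.4 with simvastatin and 28.6 in control, and Ndufv2, its iron-sulfur partner, 50.4 and 55.3. Ndufs3, Ndufs7 and Ndufs8, in the arm that leads to ubiquinone, had 19.4 and 26.1, 42.2 and 51.8, and 30.2 and 38.9. Ndufs1, which holds several iron-sulfur clusters, hardly differed by value, with 103 and 101. The smallest adjusted p among representative transcripts of the core was 0.343 in the authors' deposited table.

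Of the accessory subunits Ndufab1, the mitochondrial acyl carrier protein (chr7:122085403-122101886), had the lowest ratio, with 17.2 and 27.2 (log2 -0.66, adjusted p = 0.392 for its representative transcript in the authors' deposited table). Its 3 transcripts were all lower by value, at 9.69 and 14.1, 4.31 and 6.50, and 3.16 and 6.55. Ndufb9 and Ndufb6, subunits of the membrane arm, had 127 and 130, and 95.1 and 110. The Ndufb9 exons overlap those of Gm49356 on the same strand, as do those of Ndufb8 with Gm20538 and Ndufb2 with Gm42420, so their reads may be shared. Ndufa4, named for complex I and since assigned to complex IV, had 124 and 138, and its hypoxia-induced relative Ndufa4l2 had 5.18 and 6.91 (p = 0.034, adjusted p = 0.209 in the authors' deposited table). The 4 assembly factors, which help build complex I without staying in it, summed to 24.1 and 31.6 and had a median log2 ratio of -0.35, which kept its sign after division by the group sums (-0.16). Ndufaf7, an arginine methyltransferase, had 9.13 and 12.0, Ndufaf5, which hydroxylates Ndufs7, had 8.34 and 10.3, and Ndufaf4 had 4.19 and 4.95. The coding transcript of Ndufaf4 hardly differed, at 1.93 and 1.94, and its processed transcript, not annotated as coding, had 2.26 and 3.01. The coding transcript of Ndufaf7 had 7.85 and 9.40. Ndufaf6 had the lowest ratio of the 4, at 2.42 and 4.28 (log2 -0.82, adjusted p = 0.520 in the authors' deposited table), on 1 transcript assembled from reads. Ndufaf1, Ndufaf2, Ndufaf3 and Ndufaf8 were not analysed here.

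Complex II, succinate dehydrogenase, is the only complex with no mitochondrially encoded subunit. Its 4 members summed to 437 and 472, with a median log2 ratio of -0.07 that turned to 0.13 after division by the group sums, 0.09 below the median of all genes. Sdha, the flavoprotein that oxidises succinate, had 59.4 and 60.9, and Sdhb, the iron-sulfur subunit, 251 and 270. The membrane anchors Sdhc and Sdhd had 38.0 and 39.0, and 88.3 and 103. Of the 4, Sdhd had the lowest ratio (log2 -0.22, p = 0.026, adjusted p = 0.182 in the authors' deposited table) and Sdha the highest (log2 -0.03), and after division by the group sums only Sdhd remained on the lower side.

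Complex III, which passes electrons from ubiquinol to cytochrome c, had the lowest median of the 5 complexes, and all 9 of its members had the lower total with simvastatin as deposited, 6 of them also after division by the group sums. The direction of Uqcrq rests on models assembled from reads, since with Ensembl transcripts only its log2 ratio turned from -0.30 to 0.27 as deposited. The total of Uqcrh, 39.1 and 47.2, lay mostly in a transcript annotated as a retained intron, at 36.4 and 40.0. Its annotated coding transcript had 0.22 and 3.55. The 9 summed to 826 and 1015 (ratio 0.814), and their median log2 ratio was -0.30 as deposited and -0.10 after division by the group sums, 0.32 below the median of all genes. Cyc1, cytochrome c1 (chr15:76343523-76346260), had the lowest ratio with 61.3 and 85.1 (log2 -0.47), and its representative coding transcript, at 57.1 and 76.6, had p = 0.013 and an adjusted p of 0.128 in the authors' deposited table. Uqcrfs1, the Rieske iron-sulfur protein, had 77.2 and 95.3, and the core proteins Uqcrc1 and Uqcrc2 had 51.3 and 63.5, and 76.2 and 85.1. Of the small subunits Uqcr10 had 284 and 359 (adjusted p = 0.325 for its representative transcript in the authors' deposited table) and Uqcr11, with the highest ratio of the complex, 45.0 and 50.2. The 9 log2 ratios lay between -0.47 and -0.16, all on 1 side of 0 as deposited, while 7 of the 38 in complex I lay above 0. No test of the difference between complexes was possible with 1 value per group.

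Complex IV, cytochrome c oxidase, lay at the median of all genes. Its 10 members summed to 1582 in each group (ratio 1.00), 4 were lower and 6 higher as deposited, and the median log2 ratio was 0.01 as deposited, 0.21 after division by the group sums and -0.01 against the median of all genes. Cox8a, the broadly expressed form of a small membrane subunit (chr19:7215153-7217616), had 275 and 288, a 1.05-fold lower value with the smallest p of the coding transcripts of the members (p = 0.004, adjusted p = 0.077 in the authors' deposited table). Cox7a2, likewise the broadly expressed form of its subunit, had 253 and 249 in its representative transcript, 1.02-fold higher with p = 0.011 and adjusted p = 0.119 in the authors' deposited table. Both p-values were smaller than that of the 2.66-fold difference of Atp5e (p = 0.443 in the authors' deposited table), which belongs to complex V.

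Cox7b, another membrane subunit, had the highest ratio of all 80 members, with 195 and 166 (log2 0.23, adjusted p = 0.750 for its representative transcript in the authors' deposited table). Cox7a2l, a relative of Cox7a2, had 100 and 93.1. Cox5b, which binds zinc on the matrix side, had the lowest ratio with 32.2 and 39.4, and Cox6a1, the broadly expressed form of its subunit, had 108 and 126. The muscle forms Cox6a2, Cox7a1 and Cox8b were not analysed here. Cox4i1, the complex IV subunit that the symbol rule leaves out, had 158 and 107 (log2 0.56), with an adjusted p of 0.780 for its representative transcript in the authors' deposited table. Its transcripts stood on opposite sides. Those at 58.4 and 18.9, 29.8 and 3.82, and 14.7 and 6.10 were higher, and those at 25.3 and 41.6, 29.3 and 34.5, and 0.77 and 2.44 lower. Counting Cox4i1, Ndufa4 and Ndufa4l2 with complex IV gave a median of 0.00 over 13 genes as deposited.

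Complex V, ATP synthase, had 13 of 15 members with the lower total as deposited and 7 after division by the group sums, summing to 2054 and 2363 (ratio 0.869), with a median log2 ratio of -0.18 that became 0.01 after that division, 0.20 below the median of all genes on either scale. In the catalytic head Atp5b, the beta subunit that makes ATP, had 642 and 677, and its representative transcript had p = 0.045 and an adjusted p of 0.246 in the authors' deposited table. Atp5e, the epsilon subunit of the central stalk (chr2:174461072-174464105), had the lowest ratio of all 80 members, with 72.0 and 175 (log2 -1.28). Nearly all of it came from 1 coding transcript of 421 nt at 63.7 and 170, 2.66-fold lower with p = 0.443 and adjusted p = 0.720 in the authors' deposited table. Without Atp5e the remaining 14 members summed to 1982 and 2188, a ratio of 0.906 as deposited.

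In the stator, which holds the head in place, Atp5o, the oligomycin sensitivity protein (chr16:91925214-91931687), had 176 and 203, and its representative transcript had 154 and 199 (p = 0.006, adjusted p = 0.092 in the authors' deposited table). GENCODE lists a second gene of that name with which its exons overlap, so reads may be shared. Atp5h, subunit d of the stator, had 181 and 198. The membrane ring is made of subunit c, encoded by 3 paralogs that give the same mature protein: Atp5g3 had 177 and 198, Atp5g2 had 68.5 and 65.0, and Atp5g1 had 36.5 and 47.5. In the authors' deposited table the adjusted p of the representative transcript was 0.326 for Atp5g3, 0.499 for Atp5g2 and 0.748 for Atp5g1, so none of the 3 passed the test in either direction. Reads of near-identical coding parts may be split among the 3, and the exons of Atp5g2 overlap Mir688.

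**Figure D3:**
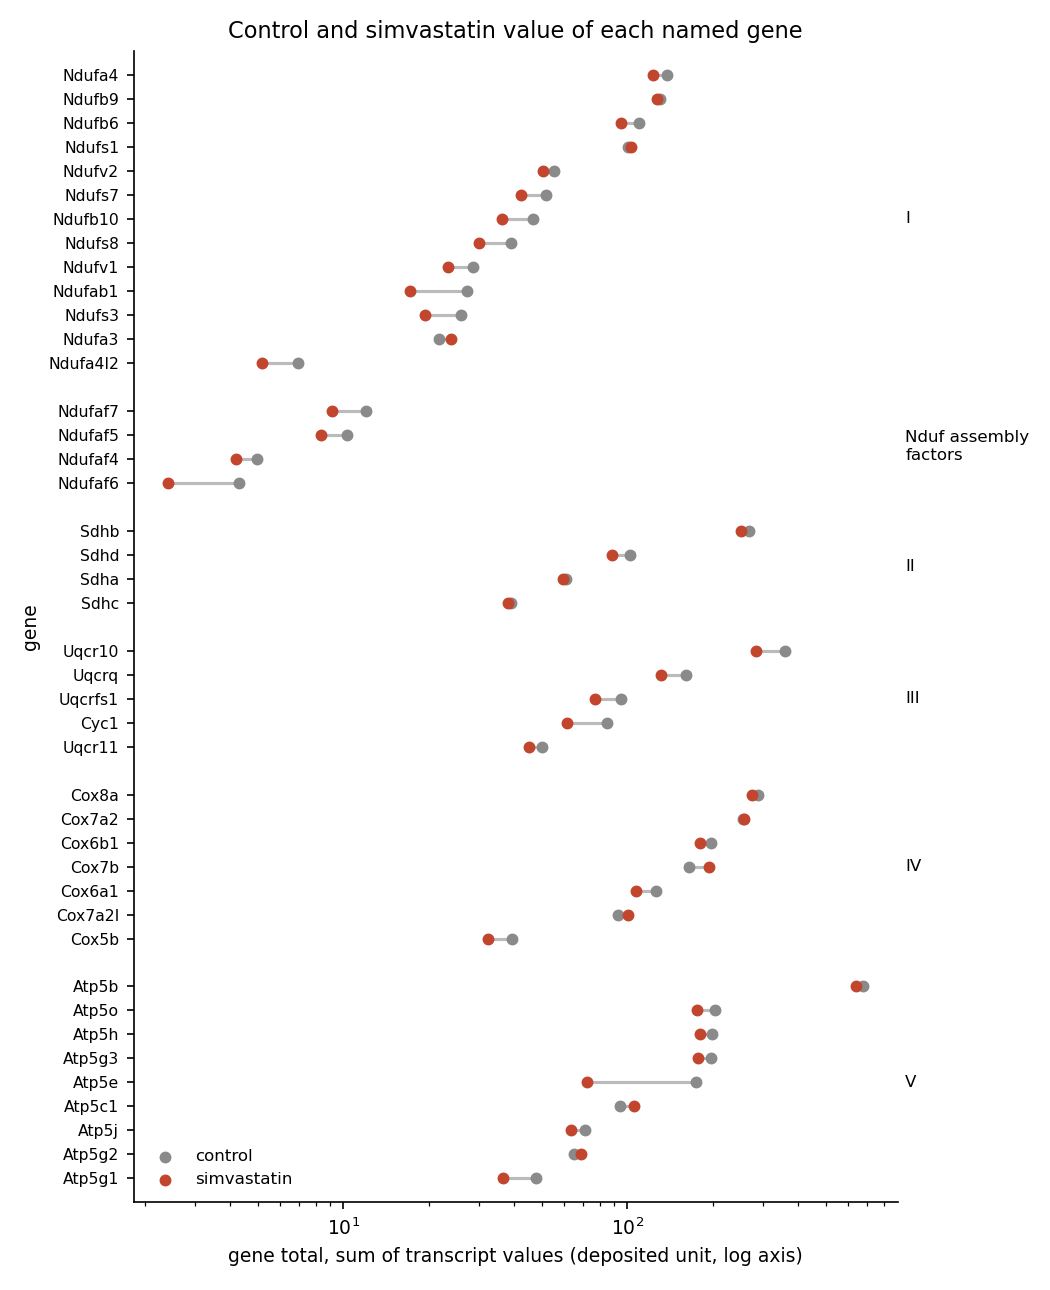
Gene totals in control (grey) and with simvastatin (red) on a log axis in the deposited unit, for the named members grouped by complex. The longest line joins the 2 values of Atp5e, 175 and 72.0, all 5 complex III genes shown have the lower value with simvastatin as deposited, and most lines are shorter than a 1.5-fold difference. Dividing by the group sums would move every simvastatin point to the right of its control by 0.20 more on the log2 scale.

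The authors' own yes or no call, which in their table went with an adjusted p of at most 0.2 and a fold of at least 1.5, fell among members on transcripts that do not code for the annotated protein or were assembled from reads. On representative transcripts it marked 0 members higher (6.91% of all genes) and 2 lower, Atp5j and Ndufb10 (5.5%). Over every transcript it marked 1 higher, of Cox6b1 (5.13% of all transcripts), and 3 lower, of Atp5j, Cox7b and Ndufb10 (4.37%). The transcripts of Cox6b1, Atp5j and Ndufb10 are annotated as retained introns, 3 of the 17 such transcripts of members (17.6%), beside 6.94% of the 1109 retained-intron transcripts in the table. Of the 103 annotated coding transcripts of members 0 were called, beside 10.4% of the 9045 in the table. A fold of 1.5 was reached by 20 of the 103 (19.4%, beside 39.8% of all coding transcripts), and the smallest adjusted p among these 20 was 0.280, of Ndufab1, in the authors' deposited table, with 0 at an unadjusted p under 0.05.

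In Cox6b1, an intermembrane-space subunit of complex IV (chr7:30616861-30626151), the retained-intron transcript had 7.53 with simvastatin and 1.88 in control (4.00-fold, adjusted p = 0.196 in the authors' deposited table), while the coding transcript had 173 and 195. The retained-intron transcript made up 4.17% of the gene with simvastatin and 0.956% in control. In Ndufb10, an accessory subunit of complex I (chr17:24722060-24724478), the called transcript with a retained intron had 23.0 and 35.2, and the annotated coding one 4.37 and 3.58. In Atp5j, coupling factor 6 of the stator (chr16:84827866-84835625), the retained-intron transcript had 18.8 and 36.9 (p = 0.005, adjusted p = 0.083 in the authors' deposited table), and the coding one 14.0 and 17.6. For Ndufb10 and Atp5j the counts of members above therefore rest on a transcript that is not annotated as coding. The called transcript of Cox7b, a model assembled from reads, had 5.01 and 8.02, while the coding transcript had 175 and 142.

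Transcripts of 1 gene could also stand on opposite sides. Among the 48 members with more than 1 transcript, 8 (16.7%) had one at least 1.5-fold higher and another at least 1.5-fold lower, beside 21.8% of 3978 genes in the table: Atp5c1, Atp5e, Atp5h, Atp5j, Ndufa3, Ndufb10, Ndufs1 and Uqcrq. In Ndufs1 the annotated coding transcript had 28.3 and 47.8, and an assembled model had 42.0 and 13.5, while the gene total hardly differed. In Uqcrq, a small subunit of complex III, 1 coding transcript had 49.8 and 28.7, an assembled model had 1.73 and 25.3, and the shortest coding one 53.2 and 56.7. None of these pairs passed an adjusted p of 0.05, and the smallest adjusted p of any transcript in these 8 genes' opposing pairs was 0.083, in Atp5j, in the authors' deposited table.

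**Figure D4:**
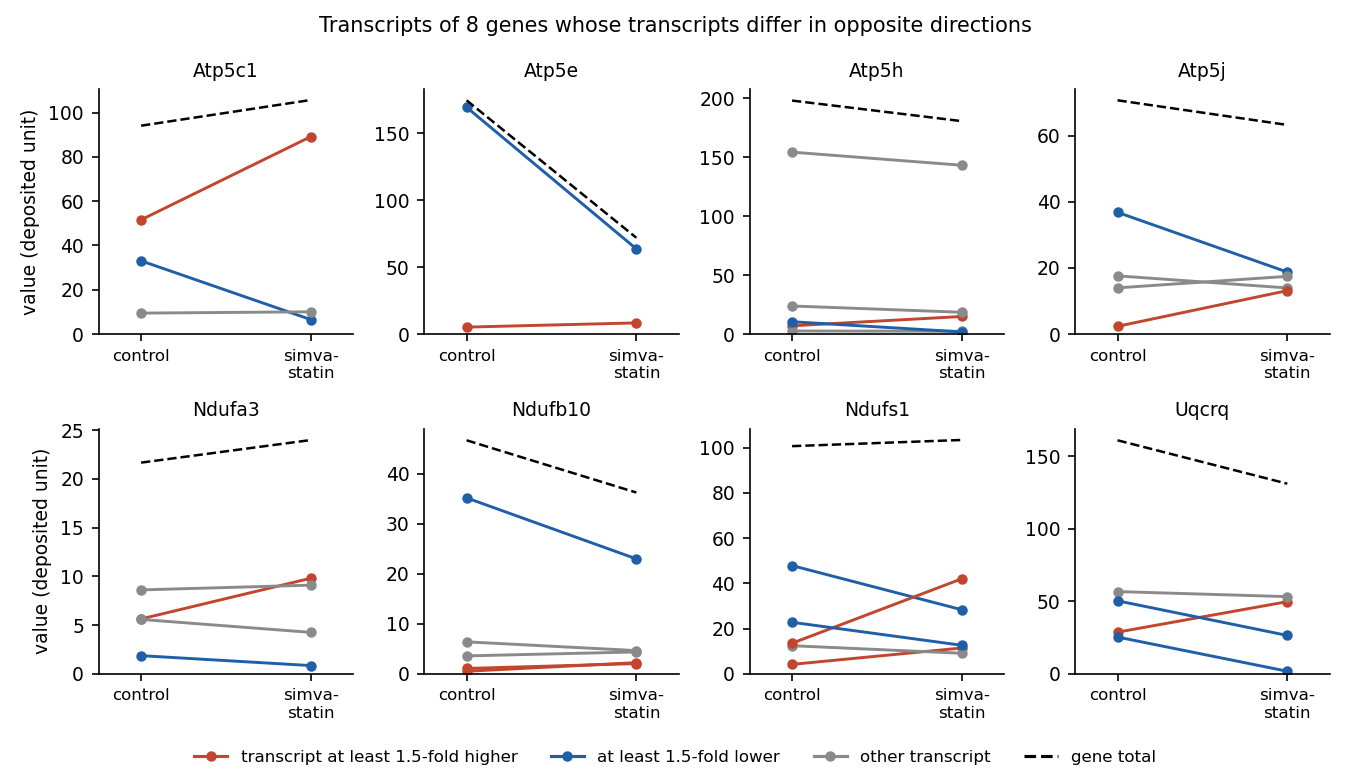
Deposited value of each transcript in control and with simvastatin for the 8 members with opposing transcripts (red at least 1.5-fold higher, blue at least 1.5-fold lower, grey other) and the gene total (dashed). In Atp5c1 one coding transcript goes from 51.6 to 89.2 and another from 33.1 to 6.50, and no transcript shown has an adjusted p under 0.05 in the authors' deposited table, with values as deposited.

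Atp5c1 encodes the gamma subunit, the shaft that turns inside the catalytic head, and its opposing transcripts differ in the end of the protein. The gene lies on the minus strand of chromosome 2. The transcript ENSMUST00000114897 (chr2:10056030-10080510, 10 exons, 298 codons) had 89.2 with simvastatin and 51.6 in control (adjusted p = 0.694 in the authors' deposited table), and ENSMUST00000026887 (chr2:10056016-10080427, 9 exons, 297 codons) had 6.50 and 33.1 (adjusted p = 0.429). They share all inner coding exons but 1: the first includes a 37-nt exon at chr2:10056770-10056806, which holds its last coding bases and its stop codon, and the second skips it and ends in the following exon. Another coding transcript that includes the exon, ENSMUST00000114896 (274 codons), had 10.0 and 9.44. The last 24 coding bases and the stop codon, from GENCODE release 21, show the alternative ends, with the bases after the last shared exon in capitals.
With the 37-nt exon: atctctggggctgctgctctGGATTAA
Without the 37-nt exon: atcatctctggggctgctgctctGTAA
The shared part is the same, and the end with the exon adds 1 codon. By value the share of the gene in ENSMUST00000114897 was 84.4% with simvastatin and 54.8% in control, a difference that did not pass the test on either transcript, and the sources used here do not say how reads were divided between the transcripts.

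The mitochondrially encoded subunits of the same complexes were on the opposite side. All 12 measured had the higher value with simvastatin, with a median log2 ratio of 0.77 and a sum of 3721 against 1974, and division by the group sums would add 0.20 to each. The differences were uneven, since mt-Atp6, mt-Nd3 and mt-Nd5 hardly differed by value, with ratios of 1.02, 1.03 and 1.10. The largest part of the sum was mt-Co1. By complex the sums of the 12 had ratios of 1.59 for complex I, 2.05 for complex III, 2.04 for complex IV and 1.35 for complex V, where the nuclear members had 0.911, 0.814, 1.00 and 0.869. In complex V the difference by value lay almost wholly in the entry for mt-Atp8, at 73.28 with simvastatin and 47.25 in control. The sources used here do not say how reads were divided between neighbouring mitochondrial entries such as mt-Atp8 and mt-Atp6, so their unlike ratios may not be separate differences. Of the 12, 0 passed an adjusted p of 0.05 in the authors' deposited table. An unadjusted p under 0.05 was reached there by 9, beside 13.6% of all genes on the higher side. The same 9 carried the authors' higher call, beside 6.91% of all genes. Of these genes mt-Co1, the catalytic subunit of complex IV, had 2138 and 1034, and mt-Cytb, the cytochrome b of complex III, had 368 and 179 (adjusted p = 0.063 and 0.089 in the authors' deposited table).

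**Figure D5:**
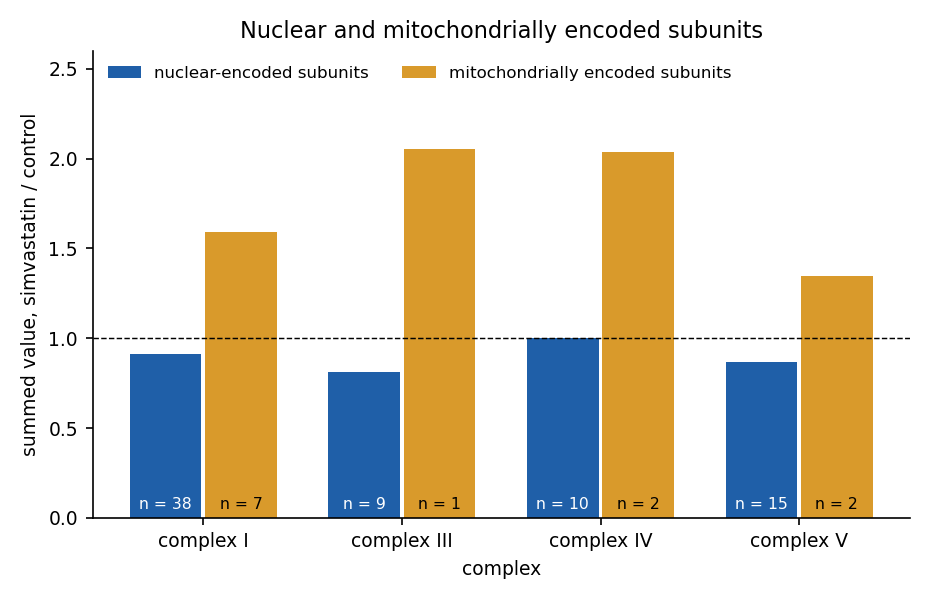
Ratio of the summed deposited values, simvastatin over control (vertical axis, from 0), for nuclear-encoded (blue) and mitochondrially encoded (orange) subunits of complexes I, III, IV and V, with the number of genes in each bar and a dashed line at 1. The nuclear ratios lie between 0.814 and 1.00 and the mitochondrial ones between 1.35 and 2.05, and dividing by the group sums would raise every bar by the same factor and take those of nuclear complexes I and IV above 1.

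The authors' deposited table of enriched terms lists oxidative phosphorylation among the pathways of their higher genes, with 15 genes, a 2.57-fold enrichment and an adjusted p of 0.0335. Of these 15, 9 are mitochondrially encoded, 4 belong to the vacuolar proton pump and 2 are members, Cox6b1 and Ndufs1. The transcript of Cox6b1 with the authors' higher call is the retained-intron one described above. For Ndufs1 no transcript carries the authors' higher call, and its gene total was 103 and 101. In all, 12 of the 15 had a transcript called higher in the main table.

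Other genes of mitochondrial energy metabolism were read from lists made beside the members. Of 29 measured assembly factors of complexes I to V outside the Nduf names, 15 were lower and 14 higher as deposited, with a median log2 ratio of -0.06 that turns positive after division by the group sums, and Uqcc2 and Cox14 had 87.6 and 103, and 83.3 and 74.5. Of 14 electron carriers and entry points, 7 were lower and 7 higher (median -0.01, or 0.19 after that division), and Cycs, cytochrome c itself, had 43.9 and 46.6. Of 21 genes of the TCA cycle and pyruvate dehydrogenase, 11 were lower and 10 higher (median -0.01, likewise 0.19), and Mdh2, malate dehydrogenase, had 183 and 215. The 13 regulators of mitochondrial biogenesis had 9 lower and 4 higher (median -0.11, again positive after that division). In these 4 lists 0 genes passed an adjusted p of 0.05 in the authors' deposited table, while 5 of 77 were higher (beside 13.6% of all genes) and 12 lower (beside 14.9%) at an unadjusted p under 0.05. Protein import and cristae genes lay nearer to complex III, with 23 of 31 lower and a median of -0.29, or -0.09 after division by the group sums. Of the 31, 11 were lower at an unadjusted p under 0.05 in the authors' deposited table, beside 14.9% of all genes. On the higher side there were 0, beside 13.6%. The authors' own call marked 3 of the 31 lower, Timm13, Timm50 and Timm8a1 (beside 5.5%), and 0 higher (beside 6.91%). These lower shares were above those of all genes. At an adjusted p under 0.05, 1 of the 31 was lower, Chchd3, a cristae junction protein (beside 1.39% of all genes). Its representative transcript was at 42.0 and 57.6 (adjusted p = 0.041 in the authors' deposited table), while the total of the gene was 57.6 and 61.2 (ratio 0.942).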

How the data were processed

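RNA had been sequenced from 3 untreated and 3 simvastatin-treated samples with stranded libraries, per the labels' protocols, and the submitters' processing notes name HISAT2 2.0.5, StringTie and the build GRCm38 (mm10). The authors' deposited table holds 1 expression value (a signal of unstated unit) per group and transcript. Its signed fold, a score here, is the authors' ratio of those values, negative where simvastatin is lower. The authors' p-value and adjusted p-value come from a test the sources used here do not name. The authors' enrichment terms, of other units, are per the file headers from DAVID. Nothing was refitted: adjusted p-values over the whole table are the authors' own, each gene was read from the transcript with the highest mean over both groups, and gene totals were summed with pandas 2.3.3 in Python 3.11.15, checked on simulated data. Members, gene lists and tests were chosen with earlier results of these data known. Named were the members with any adjusted p under 0.05, the 3 largest totals and the highest and lowest ratio of each group, the complex I core, complex II, paralogs, and members with transcripts at least 1.5-fold apart in opposite directions (each with a mean value of at least 1). Of the genes so named 1 is not reported here by itself, and counts and sums include it. Atp5a1, Uqcrc1, Uqcrc2, Uqcrh and Cycs lie outside this rule and were named after their values were seen. GENCODE release 21 gave transcript types and coordinates. No transcript value per sample was used.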

Additional observations from a re-analysis of the deposited data

How the results depend on the processing

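Counts of members past a threshold followed the threshold, from 0 in either direction at an adjusted p of 0.05. An adjusted p under 0.1 gave 3 lower (beside 5.67% of all genes) and the authors' own call 2 lower (beside 5.5%). An unadjusted p under 0.05 gave 1 higher (beside 13.6%) and 9 lower (beside 14.9%). At each of these looser thresholds the share of members was under that of all genes. Dividing by the group sums moved every log2 value by 0.20. The medians then were 0.037 for all members, 0.044 for complex I, -0.16 for the assembly factors, 0.13, -0.10, 0.21 and 0.014 for complexes II to V. The log2 ratios of summed values were 0.052, 0.063, -0.19, 0.085, -0.10, 0.20 and -0.0045 in the same order. The summed value of the assembly factors was -0.28 with Ensembl transcripts only, since 1 of the 4 is a model assembled from reads. A pseudocount of 1, low-value filters of 1 and 10, the most abundant transcript alone, centring on all genes, the coding sum and the other make-up of complexes I and IV moved no median or sum by over 0.1. The filter of 1 removed no member, so it could not move the members' medians. The filter of 10 left 1 of the 4 assembly factors, whose value is then not a median of the group. The filter of 10, the coding sum and the make-up of the complexes were chosen after seeing the data. Of 43 single gene ratios, 13 moved by over 0.1 with the most abundant transcript alone and 6 of 41 with Ensembl transcripts only. The sign turned for 2 and 3 of them: Ndufs1 to -0.76 and -0.39, Sdhc to 0.0025 under both settings, and Uqcrq to 0.27 with Ensembl transcripts only. No paired analysis was possible because the table gives 1 value per group, and for the same reason leaving out a replicate was not run. The depth behind single values is unknown.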
